A study of Mus musculus with 6 samples.

Results

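The genes described here encode the MHC class I presentation machinery, and their 8 members were listed by symbol. The rule uses no measured value, but the members were chosen with earlier results of these data known. They are the heavy chain genes H2-K1 (ENSMUSG00000061232), H2-D1 (ENSMUSG00000073411) and H2-T23 (ENSMUSG00000067212), the light chain gene B2m (ENSMUSG00000060802), the peptide transporter genes Tap1 (ENSMUSG00000037321) and Tap2 (ENSMUSG00000024339), the peptide-loading gene Tapbp (ENSMUSG00000024308) and the transactivator gene Nlrc5 (ENSMUSG00000074151). All 8 were found by Ensembl gene ID among the 56980 genes of the deposited table. RNA of tumor-associated macrophages (TAMs) was measured in 6 libraries, 3 from wild-type (WT) C57BL/6 mice and 3 from C5aR knockout (C5aR-/-) mice on the C57BL/6 background, which lack the receptor for complement C5a in every cell type. The female mice were 6 to 8 weeks old when obtained and carried tumors of ID8, a mouse ovarian cancer cell line injected into the peritoneal cavity, for 2 months. Live CD45+CD11b+Ly6G-F4/80+ cells were then sorted from the tumors and their poly(A) RNA was sequenced. The comparison asks how the transcriptome of TAMs differs when C5aR is absent. Nothing in the labels says whether a library came from 1 mouse or from pooled mice, and the number of mice given in the study's figure legends is not the number of libraries, so p-values measure the spread between these libraries.

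MHC class I molecules display peptides from the inside of a cell to CD8+ T cells. A heavy chain (H2-K1 and H2-D1 encode the classical ones of this mouse strain, H2-T23 encodes the nonclassical Qa-1) pairs with beta-2 microglobulin, the product of B2m. Peptides cut by the proteasome are carried into the endoplasmic reticulum by the TAP1-TAP2 transporter, and tapasin, the product of Tapbp, bridges the transporter and the empty heavy chain. NLRC5 enters the nucleus and raises transcription of this gene set, and interferon-gamma raises Nlrc5 itself. In macrophages, these genes are on at rest and rise further during interferon responses. ID8 cells come from the same mouse strain, so their class I transcripts cannot be told apart from those of the host in this table.

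Values are TPM, transcript abundances that are scaled for transcript length and sum to 1000000 in each library. Since TPM keep no sequencing depth, errors here come only from comparing libraries. C5ar1, the gene removed in the knockout, had a TPM of 86.5, 37.3 and 16.2 in WT and of 0.38, 0.11 and 0.05 in C5aR-/- TAMs. The labelled cell type was present in all 6 libraries, with 10 of 10 macrophage markers tested and a summed TPM of 2451 to 8775 in WT and of 2367 to 8590 in C5aR-/- TAMs. RNA of other cells was present too. The summed TPM of 7 epithelial and tumor markers was 2204 to 2490 in WT and 2000 to 2605 in C5aR-/- TAMs, with 2 markers higher and 5 lower by log2 difference. That of 5 mesothelial markers was 918 to 1254 and 711 to 966, and that of 5 neutrophil markers was 606 to 2269 and 26.4 to 375. By unadjusted p below 0.05 and at least 2-fold, 3 of 5 mesothelial and 3 of 4 tested neutrophil markers were lower, against 2.84% of all genes tested. The mesothelial markers did not all go the same way. Msln had a TPM of 145, 135 and 180 in WT against 268, 284 and 288 in the knockout. This rise was without overlap but short of 2-fold (0.88 on the log2 scale), while Wt1 overlapped between the groups (-0.10). The part of these other cells in the results below was not tested. WT TAM 3 had the highest value of all 8 class I genes, together with the lowest summed macrophage TPM among the WT libraries (2451). The log2 differences of the 8 genes, and those of the other genes and ratios that turn on this library, are therefore given with and without WT TAM 3. In sorted bulk samples, fewer cells of a type and less RNA per cell cannot be told apart.

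Most of the genes lie close together in the mouse major histocompatibility complex on chromosome 17 of GRCm38. Tapbp (33915899 to 33929292) and H2-K1 (33996017 to 34000347) come first, followed by Tap1 (34187553 to 34197225), Tap2 (34203527 to 34216321), H2-D1 (35262730 to 35267499) and H2-T23 (36029773 to 36032855). Psmb9 and Psmb8, which encode immunoproteasome subunits, sit beside Tap1, and the annotated start of Psmb9 is 211 bp inside Tap1 on the opposite strand, so that the gene models overlap. B2m is on chromosome 2 (122147686 to 122153083) and Nlrc5 on chromosome 8 (94434356 to 94527272). Because the 8 genes sit on 3 chromosomes and varied together across libraries, the promoters of a heavy chain gene and of the light chain gene are shown. They are the 250 bases up to the RefSeq start in GRCm38.p6, with H2-K1 at chr17:34000348-34000597 on the minus strand and B2m at chr2:122147437-122147686 on the plus strand. Capitals mark matches to the motifs searched.
H2-K1: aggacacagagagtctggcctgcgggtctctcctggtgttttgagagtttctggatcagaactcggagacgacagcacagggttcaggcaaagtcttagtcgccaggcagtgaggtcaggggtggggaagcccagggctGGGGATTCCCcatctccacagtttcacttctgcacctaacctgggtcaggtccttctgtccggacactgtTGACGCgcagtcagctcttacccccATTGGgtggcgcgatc
B2m: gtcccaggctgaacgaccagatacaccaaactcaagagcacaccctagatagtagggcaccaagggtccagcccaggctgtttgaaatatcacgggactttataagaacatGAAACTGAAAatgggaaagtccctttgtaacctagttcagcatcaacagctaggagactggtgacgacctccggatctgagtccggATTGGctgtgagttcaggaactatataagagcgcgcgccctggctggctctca

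The letters searched, on both strands, were GAAA and GAAA separated by NN (any bases) for an interferon-stimulated response element, TTCNNNGAA for a gamma-activated site, GGG and TTCCC separated by NN for a kappa B site, TGACGC for a CRE-like core and CCAAT for a CCAAT box. A RefSeq promoter was matched for 6 of the 8 genes, all but Tap2 and Nlrc5. The H2-K1 promoter held GGGGATTCCC from 111 to 102 bases before the start and TGACGC from 41 to 36 bases before it, and the H2-D1 promoter held the same pair at 171 to 162 and 101 to 96 bases. The H2-K1 and H2-D1 promoters shared an identical run of 47 bases around the kappa B match. In B2m, GAAACTGAAA lay 139 to 130 bases before the start, and H2-T23 had the reverse complement form TTTCTCTTTC at 124 to 115 bases. Of 27025 promoters of the same length, 3.04% held the interferon-stimulated response element letters, 1.44% the kappa B letters, 6.14% the CRE-like letters, 7.18% the gamma-activated site letters and 34.5% CCAAT. All 6 member promoters held CCAAT and 0 of 6 held the gamma-activated site letters. These matches describe letters in a short window and do not show binding. Variants of these letters were not searched, so a promoter without a match may still hold a form of the element.

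The classical heavy chain genes were abundant in the sorted cells, with H2-K1 ranked 11 to 60 and H2-D1 ranked 40 to 123 among all genes of a library. H2-K1 had a TPM of 1813, 2792 and 6489 in WT TAM 1, 2 and 3 and of 2040, 2547 and 3630 in C5aR-/- TAM 1, 2 and 3. The C5aR-/- values lay inside the WT range, and the log2 difference of C5aR-/- minus WT TAMs was -0.27 (standard error 0.49, 95% interval -1.43 to 0.89, adjusted p = 0.838 from limma). Without WT TAM 3 it was 0.24 (interval -0.63 to 1.11). H2-D1 had a TPM of 1128, 1245 and 2404 in WT and of 1204, 1228 and 1594 in C5aR-/- TAMs. It was the less variable of the classical genes, again with the C5aR-/- libraries inside the WT range. Its log2 difference was -0.17 (interval -0.93 to 0.58, limma adjusted p = 0.838), and 0.17 without WT TAM 3.

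H2-T23, whose product Qa-1 presents signal peptides of other class I chains to the CD94-NKG2A inhibitory receptor, came nearest to a difference between groups. Its TPM was 249, 326 and 728 in WT and 253, 217 and 222 in C5aR-/- TAMs. The C5aR-/- libraries were close to each other. C5aR-/- TAM 2 and 3 were below all WT libraries and C5aR-/- TAM 1 was slightly above WT TAM 1, so the groups overlapped. The log2 difference was -0.76 (standard error 0.38, interval -1.66 to 0.14, limma adjusted p = 0.414), and it was -0.31 (interval -0.76 to 0.14) without WT TAM 3. Without WT TAM 1 it was -1.08, with an unadjusted p of 0.0237 and an adjusted p of 0.342 from limma. H2-T23 did not follow H2-K1 in the C5aR-/- libraries. The ratio of H2-T23 to H2-K1, chosen after the values were seen, was 0.138, 0.117 and 0.112 in WT and 0.124, 0.0854 and 0.061 in C5aR-/- TAMs, with C5aR-/- TAM 1 inside the WT range and the other two below it.

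B2m, the light chain shared by all class I molecules, was the most abundant member. Its TPM was 3042, 4185 and 8610 in WT and 3357, 4218 and 5439 in C5aR-/- TAMs, from 0.304% to 0.861% of all TPM in a library. In WT TAM 3 it was the sixth-ranked gene of the whole table (rank 6, against ranks 11 to 26 in the other libraries). The log2 difference was -0.17 (standard error 0.42, interval -1.17 to 0.83, limma adjusted p = 0.886), and 0.25 without WT TAM 3. The ratio of B2m to the summed TPM of 17 class I heavy chain genes stayed between 0.776 and 0.938 in the 6 libraries. Light and heavy chain transcripts thus varied in near-constant proportion, and this ratio had a group difference of 0.09 on the log2 scale (two-sided exact permutation test, p = 0.5).

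The transporter and the transactivator were much less abundant than the chains they serve, and they varied the most. Tap1 had a TPM of 41.7, 65.5 and 219 in WT and of 72.5, 56.9 and 139 in C5aR-/- TAMs, 3.34-fold from the lowest to the highest library even without WT TAM 3. Tap2 had 40.3, 62.5 and 161 in WT and 67.2, 48.0 and 93.3 in C5aR-/- TAMs. Both were highest in WT TAM 3, second in C5aR-/- TAM 3 and lowest in WT TAM 1. The log2 difference was -0.02 for Tap1 (interval -1.52 to 1.48, limma adjusted p = 0.991) and -0.14 for Tap2 (interval -1.35 to 1.07, limma adjusted p = 0.923). Without WT TAM 3 they were 0.66 and 0.41. Nlrc5 had a TPM of 22.4, 39.6 and 115 in WT and of 37.1, 28.8 and 65.3 in C5aR-/- TAMs, the same order of libraries at the top and bottom as the transporter genes. Its log2 difference was -0.18 (standard error 0.60, interval -1.61 to 1.24, limma adjusted p = 0.915), and 0.45 without WT TAM 3.

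Tapbp, the tapasin gene, varied little by comparison. Its TPM was 277, 315 and 536 in WT and 335, 237 and 274 in C5aR-/- TAMs, with the groups overlapping. The log2 difference was -0.37 (interval -1.02 to 0.28, limma adjusted p = 0.582), and -0.08 without WT TAM 3. Tapbp and H2-T23 were the only members whose second-highest value was not in C5aR-/- TAM 3.

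**Figure D1:**
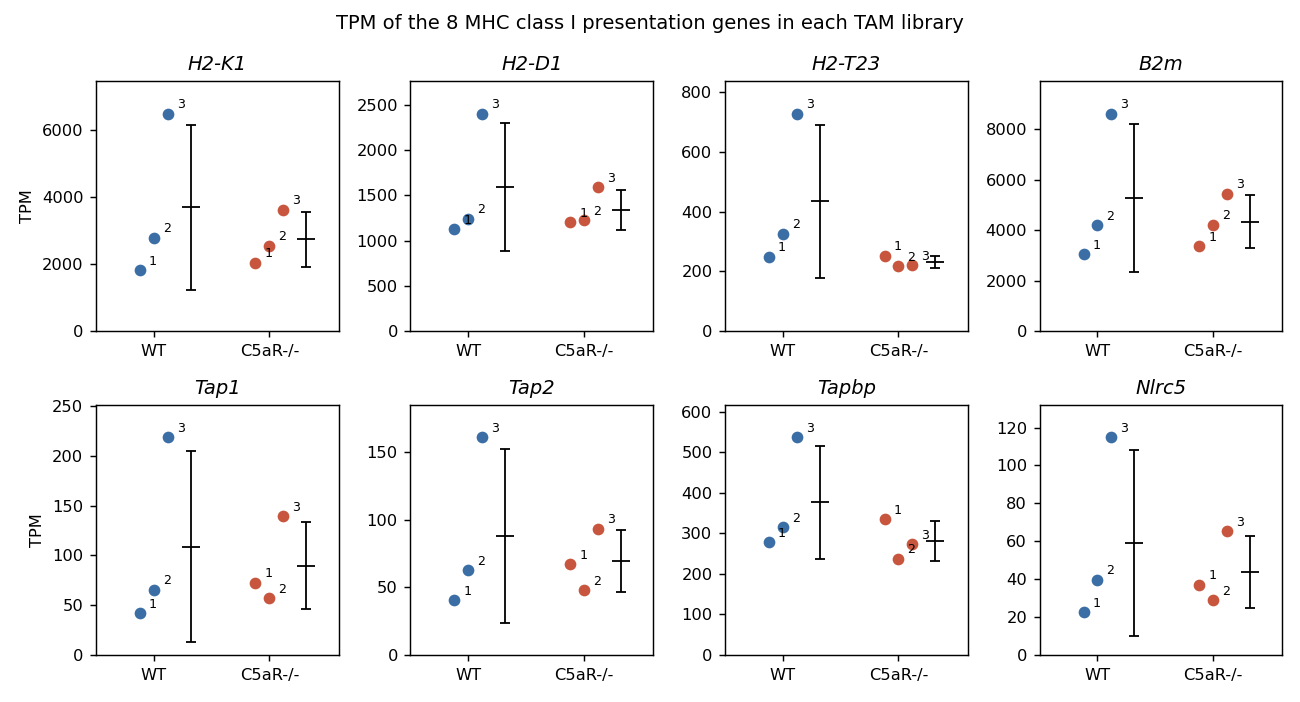
TPM (linear axis from 0) of each of the 8 class I genes by group, with each library as a point numbered by its replicate and the group mean ± SD (n = 3) as a mark with whiskers beside them. WT TAM 3 is the highest library in all 8 panels, and C5aR-/- TAM 3 is second in 6 of them.

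With 3 libraries a group, 0 of the 8 class I genes differed at limma's adjusted threshold (adjusted p below 0.05, at least 2-fold), and 0% of the 14776 genes tested did. By unadjusted p below 0.05 alone, 2133 of the 14776 and 0 of the 8 passed. Requiring 2-fold as well left 4.96% of all genes tested (2.84% lower and 2.13% higher) and again 0 of 8. The groups overlapped for all 8 genes, whereas 21.3% of all genes tested had groups that did not overlap (12.5% lower and 8.84% higher in C5aR-/- TAMs). All 8 log2 differences were negative, with a median of -0.18, against a median of -0.05 over all genes tested, of which 55.5% were negative. The shared sign depended on single libraries, most of all on WT TAM 3. Without WT TAM 3, 6 of the 8 were positive and the median was 0.25 (all genes tested, -0.02). Without C5aR-/- TAM 1, 2 of the 8 were positive, and without C5aR-/- TAM 2, 3 of the 8 were. The intervals of Tap1, Tap2, Nlrc5, H2-K1 and B2m reach past a log2 difference of 0.8 in both directions, so they do not exclude a change of that size in either direction.

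**Figure D2:**
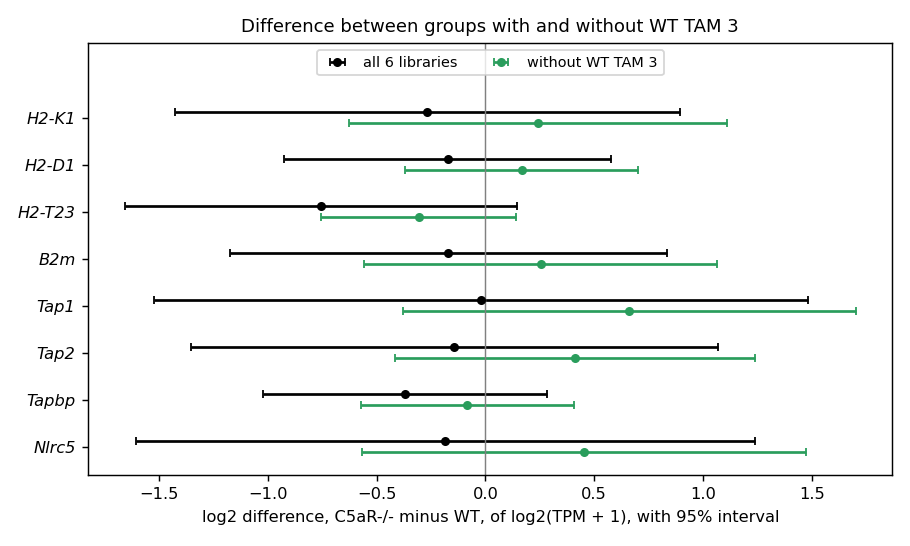
Log2 difference of C5aR-/- minus WT TAMs, on the log2(TPM + 1) scale, for the 8 class I genes, with points for the estimate and bars for the 95% interval from limma, from all 6 libraries (black) and without WT TAM 3 (green). Every interval crosses 0, and 6 of the 8 estimates move from below to above 0 when WT TAM 3 is left out.

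The libraries of a group differed from each other. All 8 genes were highest in WT TAM 3, where 22.8% of all genes tested were highest, and 6 of 8 were lowest in WT TAM 1. The highest WT library was at least 2-fold over the lowest for 7 of the 8, against 19.6% of all genes tested. In C5aR-/- TAMs this held for 2 of the 8 (Tap1 and Nlrc5), against 32.3%. WT TAM 3 exceeded the next-highest library by 1.51-fold for H2-D1 up to 2.23-fold for H2-T23. Over the 6 libraries, Pearson's r of log2(TPM + 1) between pairs of the 8 genes was from 0.677 to 0.997, with a median of 0.929 over 28 pairs. These values are descriptive, since all pairs share the 6 libraries and WT TAM 3 lies at one end of each. Without it the pairwise r was from -0.333 to 0.991 (median 0.751 over 5 libraries). The genes fell into a larger set of H2-K1, H2-D1, B2m, Tap1, Tap2 and Nlrc5, where the lowest r over 6 libraries was 0.916, and the pair of H2-T23 and Tapbp with an r of 0.951.

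Macrophage markers ran opposite to the class I genes in WT TAMs. The median deviation of the class I genes from their 6-library mean, on the log2 scale, was -0.63, -0.13 and 1.17 in WT TAM 1, 2 and 3, and that of 10 macrophage markers was 0.72, -0.57 and -0.90. In C5aR-/- TAM 1, 2 and 3 the values were -0.24, -0.44 and 0.29 for the class I genes and 0.99, 0.18 and -0.59 for the macrophage markers. The part of cell composition in the class I values was not tested. Summed TPM of 7 T cell markers was 26.1, 57.6 and 90.2 in WT and 61.2, 51.5 and 23.2 in C5aR-/- TAMs, and Ifng, the interferon-gamma gene of T and NK cells, had a TPM of 1.10, 6.43 and 18.1 in WT and of 3.25, 2.60 and 1.90 in C5aR-/- TAMs. WT TAM 3 was thus also highest for Ifng and for the T cell sum, although only 3 of the 7 T cell markers were highest there, whereas C5aR-/- TAM 3, second for 6 of the 8 class I genes, was low for both.

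**Figure D3:**
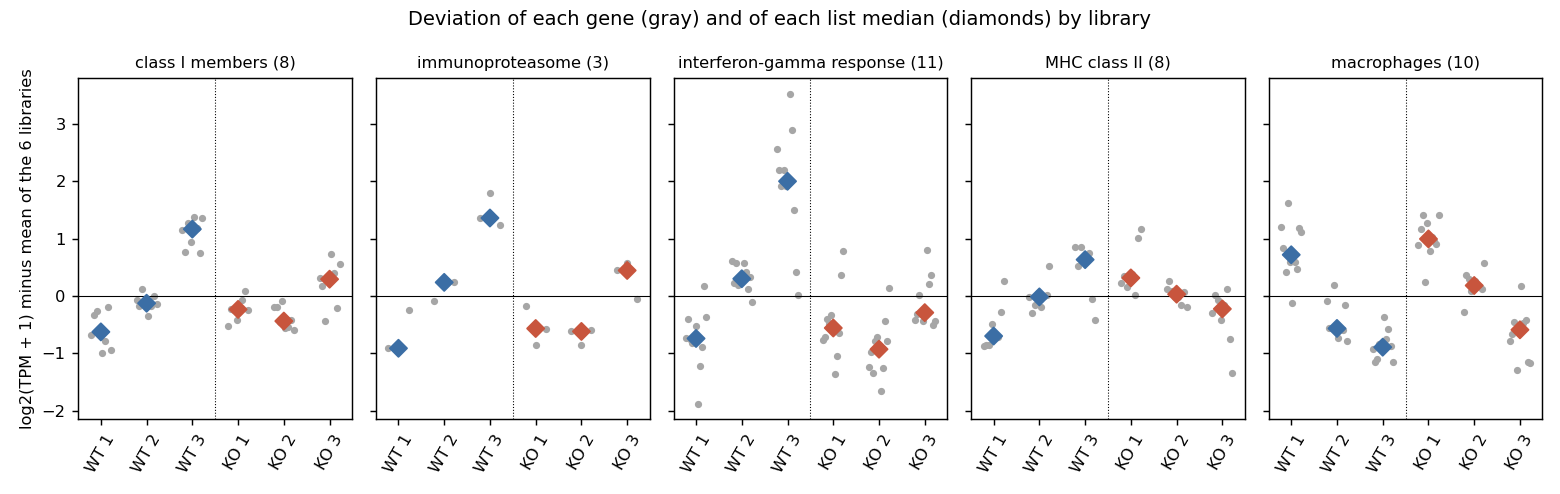
Deviation of log2(TPM + 1) from the mean of the 6 libraries for each gene (gray points) and the median of each list (diamonds, WT in blue and C5aR-/- in red), with KO for C5aR-/- and the number of genes in brackets. The class I, immunoproteasome, interferon-gamma response and MHC class II genes have their highest median in WT 3, where the macrophage marker median is lowest. In KO 3 the class I median is 0.29 while the interferon-gamma response median is -0.29.

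Reads of near-identical heavy chain genes can be split between them by the authors' estimates, so sums were examined too. In the GENCODE transcripts, 0% of the 150-base windows of H2-K1 occur in another gene, 1.54% of those of H2-D1 and 0.831% of those of H2-T23, and in 50-base windows the shares are 6.87%, 13.9% and 28.8%. The values of H2-D1 and H2-T23 are therefore the less certain ones. Summed over 17 class I heavy chain genes, TPM was 3524, 4950 and 11095 in WT and 3980, 4495 and 6304 in C5aR-/- TAMs. The sum removes the split among these 17 genes, though not that with the pseudogene H2-T-ps and with Gm7030, which share windows with H2-T23. It too had the C5aR-/- values inside the WT range (log2 difference -0.26, two-sided exact permutation test, p = 0.8, where 0.1 is the smallest p that 3 against 3 libraries allow). H2-K1 and H2-D1 held 80.2% to 84.0% of the sum.

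Ratios within a library, which do not depend on scaling between libraries, were compared in a family of 6 (two-sided exact permutation tests, adjusted p = 0.8 for each). With a smallest possible p of 0.1, this design could not reach 0.05 for any of them. The ratio of H2-K1 to H2-D1 was 1.61, 2.24 and 2.70 in WT and 1.69, 2.07 and 2.28 in C5aR-/- TAMs. It was higher in libraries with a larger heavy chain sum. H2-K1 is itself a large part of that sum, so the ratio and the sum are not independent. Tap1 and Tap2 encode the partner chains of a heterodimer, and their ratio stayed between 1.04 and 1.49. The immunoproteasome subunits, which replace constitutive subunits under interferon and alter the peptides supplied to class I, spread far more. The ratio of Psmb9 to its constitutive counterpart Psmb6 was 0.184, 0.397 and 1.07 in WT and 0.207, 0.203 and 0.456 in C5aR-/- TAMs. The ratio of Psmb8 to Psmb5 was from 1.29 to 5.43 in WT and from 1.45 to 2.58 in C5aR-/- TAMs, and that of Psmb10 to Psmb7 from 0.486 to 1.30 and from 0.381 to 0.670. The log2 differences of these 3 ratios were -0.68, -0.31 and -0.58, each smaller than the SD among the WT libraries. Without WT TAM 3 they were -0.02, 0.25 and -0.14, and that of H2-K1 to H2-D1 was 0.08 in place of -0.09.

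The rest of the class I pathway was examined in 7 lists of 76 genes, 69 of them abundant enough to test. The log2 difference was positive for 22 and negative for 47, and its median was -0.16. Over all genes tested, 55.5% were negative and the median was -0.05. At the adjusted threshold 0 passed (0% of all genes tested). At the unadjusted threshold 1 passed, as lower, against 2.84% of all genes tested. That gene was Ifnb1, which encodes interferon-beta, with a TPM of 11, 7.59 and 2.05 in WT and of 0.98, 0.53 and 0 in C5aR-/- TAMs. Every C5aR-/- value was below the filter of 1 TPM. Ifnb1 was thus tested only through its WT values, so its call as lower is no support for a difference. C5aR-/- minus WT was -2.23 on the log2 scale (SE 0.55, limma adjusted p = 0.168), and -2.81 without WT TAM 3. The groups did not overlap for 8 of the 69, 7 lower and 1 higher, against 21.3% of all genes tested. Besides Ifnb1 they were H2-Q10, Hspa5, Pdia3, Nfya, Creb1 and Tmem127 on the lower side and Hfe on the higher side.

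Among the other heavy chains and class I-like genes, 13 of 19 were tested, 4 with a positive and 9 with a negative log2 difference (median -0.27). Without WT TAM 3 the median was 0.15, and 6 of the 13 log2 differences were negative. H2-Q4, a nonclassical gene of the Q region, had a TPM of 114, 220 and 603 in WT and of 181, 202 and 366 in C5aR-/- TAMs, and H2-T22 had 70.6, 103 and 316 and 78.3, 84.1 and 154. Both were highest in WT TAM 3 and second in C5aR-/- TAM 3, like H2-K1. Hfe, a class I-like regulator of iron uptake, had the list's largest log2 difference and went the other way, with 13.6, 11.7 and 10.9 in WT and 22.7, 22.1 and 16.1 in C5aR-/- TAMs (log2 difference 0.70, limma adjusted p = 0.203). H2-Q10 was next in size, with 3.70, 4.98 and 4.34 in WT and 3.45, 2.46 and 2.12 in C5aR-/- TAMs (log2 difference -0.55, limma adjusted p = 0.35).

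Of 8 genes for loading and trimming in the endoplasmic reticulum, 3 had a positive and 5 a negative log2 difference, with a median of -0.35. Hspa5, an ER chaperone that binds unfolded chains, had a TPM of 2188, 1500 and 1225 in WT and of 840, 1041 and 889 in C5aR-/- TAMs (log2 difference -0.79, limma adjusted p = 0.233). Pdia3, the disulfide isomerase of the peptide-loading complex, had 448, 414 and 403 in WT and 314, 324 and 273 in C5aR-/- TAMs (log2 difference -0.47, limma adjusted p = 0.2). In both genes the groups did not overlap and WT TAM 3 was the lowest WT library, unlike in the class I genes. Tapbpl, a tapasin-related peptide editor, had 20.4, 24.3 and 49.6 in WT and 18.6, 16.6 and 26.8 in C5aR-/- TAMs, with the groups overlapping.

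Of 13 proteasome and peptidase genes, 3 had a positive and 10 a negative log2 difference (median -0.16). The largest log2 differences were those of Psmb10 (-0.81, limma adjusted p = 0.39) and Psmb9 (-0.75), which were -0.40 and -0.04 without WT TAM 3. Psmb10 had a TPM of 78.9, 111 and 223 in WT and of 63.1, 61.9 and 90.8 in C5aR-/- TAMs, with C5aR-/- TAM 3 above WT TAM 1. Psmb9 and Tap1 start from the same short stretch of DNA on opposite strands, and they did not keep the same proportion in both groups. The ratio of Psmb9 to Tap1, chosen after the values were seen and not tested, was 1.03, 1.57 and 1.35 in WT and 0.636, 0.807 and 0.906 in C5aR-/- TAMs. The groups did not overlap in this ratio, and 1.96% of 14297 genes did not overlap in their ratio to Tap1. Reads of the overlapping ends can be told apart only by strand, and whether the authors' estimates used strand is not given in the sources used here.

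Of 17 transcription factor genes, 5 had a positive and 12 a negative log2 difference (median -0.14). Stat2, a factor of the response to type I interferon, had a TPM of 41.6, 63.3 and 165 in WT and 64.2, 41.8 and 41.7 in C5aR-/- TAMs (log2 difference -0.65, and -0.09 without WT TAM 3). Its values overlapped between the groups. The genes of factors that bind class I promoters together with NLRC5 had log2 differences of -0.23 for Rfx5, -0.41 for Rfxank, 0.17 for Rfxap and -0.33 for Nfya. In the same list the log2 difference was 0.03 for Nfyb, 0.05 for Nfyc, -0.02 for Atf1 and -0.135 for Creb1. Irf1, an interferon-induced factor that also acts on class I promoters, had 106, 126 and 212 in WT and 132, 81.3 and 119 in C5aR-/- TAMs. Of 10 genes of interferon ligands, receptors and kinases, 3 had a positive and 7 a negative log2 difference (median -0.20), and Ifnb1 and Ifng had the lowest. Of 3 negative regulators of surface class I, Tmem127 had a TPM of 37.1 to 43.1 in WT and of 26.6 to 35.9 in C5aR-/- TAMs (limma adjusted p = 0.318), and Wwp2 had 25.8 to 35.9 and 28.3 to 35.3. Of 6 receptors for class I, 5 were tested, 2 with a positive and 3 with a negative log2 difference. The largest were those of Pirb (-0.27) and Klrd1 (-0.27), and Cd8a was listed at a TPM of 1.16 to 4.02 in WT and of 2.15 to 4.56 in C5aR-/- TAMs.

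**Figure D4:**
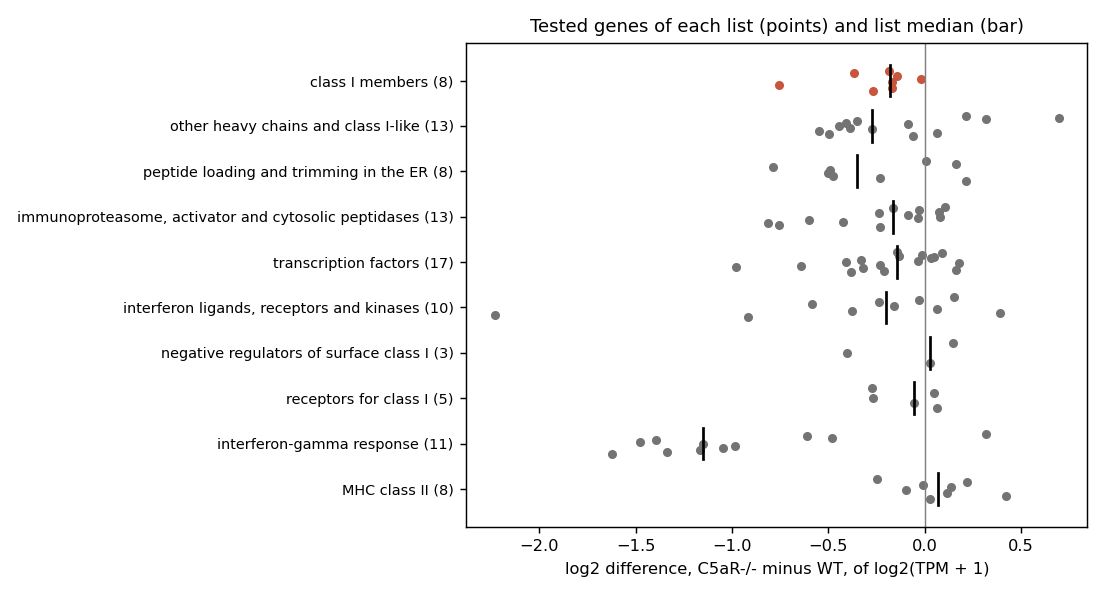
Log2 difference of C5aR-/- minus WT TAMs, on the log2(TPM + 1) scale, for each tested gene (points) and the median (bar) of the class I genes (red) and of the other lists (gray), with the number of tested genes in brackets. The class I genes lie between -0.76 and -0.02, and of the lists drawn the interferon-gamma response list has the lowest median (-1.15).

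A list of 11 tested interferon-gamma response genes, among them guanylate-binding protein (Gbp) and immunity-related GTPase genes, had 1 positive and 10 negative log2 differences (median -1.15), and 0 of the 11 passed either threshold. Without WT TAM 3 the median was -0.29. Gbp2 (-1.62) and Iigp1 (-1.48) had the largest differences over all 6 libraries, and without WT TAM 3 these were -0.74 and -0.09. Gbp2 had a TPM of 54.3, 140 and 546 in WT and of 52.9, 38.2 and 68.2 in C5aR-/- TAMs, and Iigp1 had 7.49, 45.6 and 359 and 11.2, 8.84 and 53.7. In C5aR-/- TAM 3 the TPM of Nlrc5 was 1.65-fold that in WT TAM 2, and the TPM of Gbp2 was 0.487-fold that in WT TAM 2. Not every gene of the list went with Gbp2 in this pair of libraries. Iigp1 (53.7 against 45.6) and Cxcl9 (4.68 against 3.79) were higher in C5aR-/- TAM 3 than in WT TAM 2. This pair of libraries does not stand for the groups, which overlapped for Cxcl9. Its TPM values were 1.81, 2.24 and 4.68 in the knockout libraries against 1.36, 3.79 and 11.4 in the WT libraries. For Cxcl9, C5aR-/- minus WT came to -0.48 on the log2 scale (limma adjusted p = 0.76), and to 0.15 without WT TAM 3.

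Set against Nlrc5 of the same library, Gbp2 stood at 2.42, 3.53 and 4.76 in WT and at 1.43, 1.33 and 1.04 in C5aR-/- TAMs, and all 3 C5aR-/- libraries were below the WT libraries. The same separation was seen for 7 of the 11 genes (Gbp2, Gbp3, Gbp4, Gbp5, Gbp7, Irgm1 and Igtp). Of 14297 genes, 0.755% were apart and lower in their ratio to Nlrc5. With Tap1 in place of Nlrc5 it was again 7 of 11, against 0.874%. With H2-K1 or B2m it was 3 of 11, against 1.24% and 1.89%. These ratios were chosen after the values were seen, and the gene list was chosen with earlier results of these data known. The counts are therefore descriptive, and the comparison was not tested. Of the other 7 class I genes, 1 did not overlap between the groups in its ratio to Nlrc5 (2.29% of 14297 genes did not). It was Tap1, with 1.86, 1.65 and 1.91 in WT and 1.96, 1.97 and 2.14 in C5aR-/- TAMs.

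MHC class II genes, which present peptides from outside the cell to CD4+ T cells, were also highest in WT TAM 3 for 6 of the 8 tested. Of the 8, 5 had a positive and 3 a negative log2 difference (median 0.07, and 0.41 without WT TAM 3). The exceptions were H2-Oa and H2-Ob, which were highest in C5aR-/- TAM 1. H2-Ob had 29.0, 35.3 and 17.9 in WT and 55.8, 20.9 and 8.93 in C5aR-/- TAMs, and H2-Ab1 had a TPM of 837, 1244 and 2181 in WT and of 1931, 1829 and 1546 in C5aR-/- TAMs. C5aR-/- TAM 3, second for most class I genes, had the lowest H2-Ab1 of its group.

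The genes whose pattern over the 6 libraries was most like the mean of the class I genes were Taf1c (Pearson's r = 0.999), Ndufa5 (0.991), Batf2 (0.989), Psmb8 (0.988) and H2-T22 (0.987), over 6 libraries and 14776 genes. Psmb8, the immunoproteasome gene between Tap1 and Tap2, was also the closest to Nlrc5 alone (0.997), followed by Taf8 (0.990) and Zscan26 (0.989). Batf2, an interferon-induced factor of macrophages, had a TPM of 1.35, 3.30 and 13.2 in WT and of 3.44, 2.44 and 5.02 in C5aR-/- TAMs. These r values are descriptive and share the same 6 libraries.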

How the data were processed

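Before deposit, the authors used fastp for trimming, HISAT2 for alignment and StringTie for abundance, and the deposited unit is TPM per gene. Their methods name FPKM, and the tool that made the TPM is not given in the sources used here. The submitters' processing notes also name RSEM, DESeq2 and the mm10 build, without versions. Group averages that the table also holds, equal to those of its libraries, were left out. Symbols were matched for 52073 of 56980 gene IDs in GENCODE M21 (GRCm38), and positions come from there. For symbols with several IDs, the most abundant ID stood for the gene. Count models were not run, since TPM are not counts.

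Testing covered the 14776 genes that reached 1 TPM in 3 or more of the 6 libraries. The transformed values, log2(TPM + 1), went into limma 3.58.1 (R 4.3.3), using eBayes with trend, no covariate and Benjamini-Hochberg adjustment over all tested genes. Log2 differences on this scale understate changes of genes with low TPM. The test was checked on simulated data. Sums and ratios were compared with two-sided exact permutation tests. The alternatives changed the pseudocount (0.1), the filter (none, or 5 TPM), the scaling (quantile or median-of-ratios), the eBayes trend, the block on replicate number or the set of libraries (each left out in turn). Named were the 8 genes, C5ar1, the 2 genes with the largest absolute log2 differences of each list plus others needed to describe it, the 5 genes most like the class I mean and the 3 most like Nlrc5. A gene of the transcription factor list that this rule would name is not reported here. The members and lists were chosen with earlier results of these data known. Python 3.11.15, pandas 2.3.3, numpy 2.4.6 and matplotlib 3.10.9 were used for the values and figures.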

Additional observations from a re-analysis of the deposited data

How the results depend on the processing

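None of the 8 class I genes passed the adjusted threshold under any alternative run. The log2 difference of Tap1 (-0.02) turned positive under quantile scaling (0.009) and under median-of-ratios scaling (0.026). When each library was left out in turn, the log2 difference ranged from -0.677 to 0.243 for H2-K1, from -0.378 to 0.167 for H2-D1, from -1.078 to -0.307 for H2-T23, from -0.497 to 0.254 for B2m, from -0.521 to 0.661 for Tap1, from -0.575 to 0.411 for Tap2, from -0.558 to -0.084 for Tapbp and from -0.700 to 0.452 for Nlrc5. The lowest value came without WT TAM 1 and the highest without WT TAM 3 in each. The class I median ranged from -0.567 to 0.248, that of the other pathway genes from -0.32 to -0.043 and the summed heavy chain difference from -0.617 to 0.21. Of the 8 class I genes, 0 to 1 passed the unadjusted threshold (H2-T23, without WT TAM 1), and of the other pathway genes 1 to 4. Over all genes, 0 to 356 passed the adjusted threshold (356 without C5aR-/- TAM 1) and 567 to 1266 the unadjusted one (1266 without the same library), against 0 and 733. With eBayes without trend 2 genes passed the adjusted threshold. With a filter of 5 TPM, 475 genes passed the unadjusted threshold and 0 of the other pathway genes, since Ifnb1 was no longer tested. The causes of the other changes were not tested. The split of the 733 unadjusted calls, 314 higher and 419 lower, was 386 and 371 under quantile scaling and 354 and 383 under median-of-ratios scaling. The replicate numbers are shared by the groups. Deviations from the group means correlated at 0.186, -0.011 and 0.272 between same-numbered libraries and at -0.230 to 0.093 between the others. No pairing is stated in the labels, and none was used in the main fit. Fitting the number as a replicate block gave 0 adjusted and 811 unadjusted calls, and the lowest adjusted p of a class I gene was 0.39 (limma). The block lowered the standard error from 0.629 to 0.298 for Tap1, from 0.595 to 0.319 for Nlrc5 and from 0.486 to 0.268 for H2-K1. For H2-T23 it went from 0.378 to 0.350. The interval of Tap1 with the block was -0.795 to 0.754. The count of 7 interferon-gamma response genes in ratio to Nlrc5 became 7 with Tap1, 3 with H2-K1 and 3 with B2m, alternatives chosen after seeing the data. Depth is unknown from TPM.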
